A study of Xenopus laevis with 14 samples.

Results

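Brains of stage 47 *Xenopus laevis* tadpoles were profiled by RNA-seq in 14 libraries. The replicate numbers in the library labels form a pair of sets, whose brain expression is compared here. The set described here holds the 5 libraries with replicate number 4 or 5 (control 4 and 5, *eef1a2* CRISPant 4 and 5, *ap3b2* CRISPant 4). It was compared with the 9 libraries numbered 1 to 3 (3 per condition). Control embryos had received Spy-Cas9-NLS with a scrambled guide RNA and are labelled wild type and unedited. The *eef1a2* and *ap3b2* CRISPants carry loss-of-function edits (labelled *eef1a2*-/- and *ap3b2*-/-) made in wild type embryos, are F0 animals and are mosaic, so that edited and unedited cells share a brain. The *ap3b2* guide was designed to the S copy. All embryos came from 2 females, all tadpoles were kept in 0.1 x MMR salt solution, and each library holds 6 brains cut from the spinal cord at its junction with the brain and pooled. No label says what else sets replicates 4 and 5 apart. A difference in female, day, dissection, extraction or sequencing run therefore cannot be told apart from the replicate number, and p-values measure the spread between these pools of brains.

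*X. laevis* arose by hybridisation of related frogs and keeps many genes as a pair of copies (homeologs), named .L and .S after the longer and shorter chromosome of each pair. Homeologs are often expressed at unequal levels. Along the neural tube, *hox* genes mark position from the hindbrain backwards into the spinal cord, while *dlx*, *fezf*, *lhx6*, *tbr1* and *nkx2* genes mark forebrain territories. The pituitary lies under the hypothalamus and the pineal on the roof of the diencephalon. The meninges, blood, choroid plexus and cranial muscle lie against the brain. In a bulk library, fewer cells of a type and less RNA per cell cannot be told apart.

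Between 39.2 M and 46.7 M read pairs were counted on genes in replicates 4 and 5, and between 36.6 M and 46.0 M in replicates 1 to 3, so that depth overlapped between the sets. Scaling factors (TMM, trimmed mean of M values) ranged from 0.949 to 1.05 over all 14 libraries. Values are given as counts per M (CPM) after this scaling. The tissue label fitted the markers, since all 89 mature neuron and all 50 neural progenitor genes listed in the table were expressed enough to be tested. CPM values are not divided by gene length, so levels are compared between libraries and not between genes. Neither copy of either targeted gene passed the test between the replicate sets (edgeR quasi-likelihood F test, adjusted p = 0.213 for *ap3b2.L*, 0.631 for *ap3b2.S*, 0.446 for *eef1a2.L* and 0.999 for *eef1a2.S*). The transcripts of both genes were present in every library: *ap3b2.S* lay between 64.8 and 80.2 CPM in replicates 4 and 5 and between 61.9 and 76.4 CPM in replicates 1 to 3, and *eef1a2.S* between 369 and 444 CPM and between 372 and 479 CPM.

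The first 2 principal components of log2 CPM held 48.6% and 15.4% of the variance over 21328 genes. Controls and CRISPants spread along the first component, where the replicate sets overlapped. On the second component all 5 libraries of replicates 4 and 5 lay on one side. Their scores were 87.4 and 22.01 for controls 4 and 5, 108 and 44.0 for *eef1a2* CRISPants 4 and 5 and 75.9 for *ap3b2* CRISPant 4, against −64.9 to −11.9 for replicates 1 to 3. In each condition with both numbers, replicate 4 lay farther from replicates 1 to 3 than replicate 5 did. The sets were also apart on the second component (10.7% of the variance) when the 500 most variable genes were used.

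**Figure D1:**
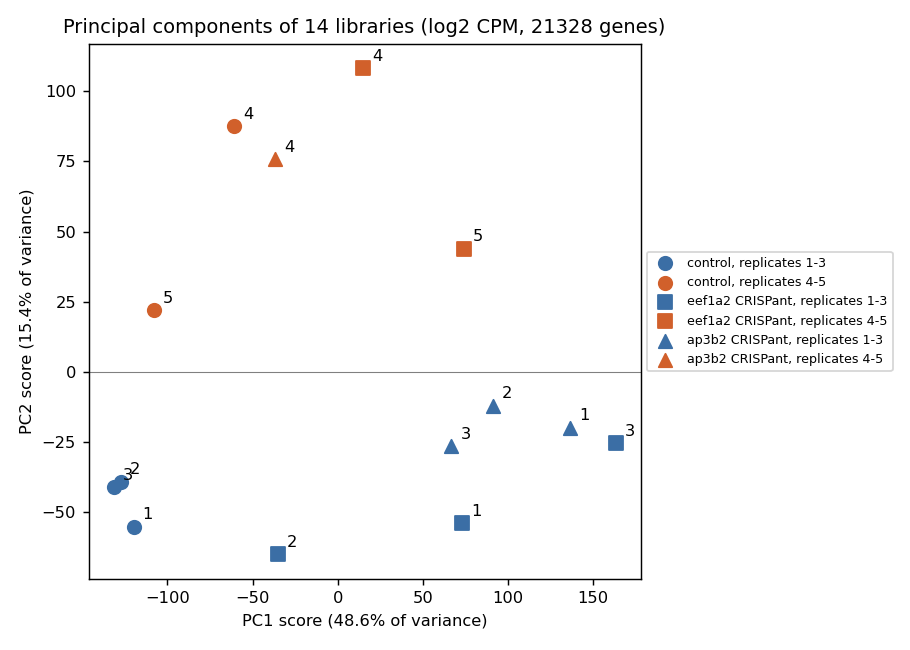
Scores of the 14 libraries on the first (x axis) and second (y axis) principal components of scaled log2 CPM, with the marker giving the condition, the colour the replicate set and the digit the replicate number. The 5 libraries of replicates 4 and 5 lie between 22.01 and 108 on the second component, above all 9 libraries of replicates 1 to 3 (−64.9 to −11.9).

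With condition as a covariate, 56 genes were higher (0.263% of 21328 tested) and 58 lower (0.272%) in replicates 4 and 5 at an adjusted p below 0.05 and a fold change above 2. Without the fold threshold, 983 genes were higher (4.61%) and 1032 lower (4.84%), with median log2 differences of 0.33 and −0.31. The balance depended on the scaling, since library size alone gave 1320 higher and 831 lower genes by this rule. Most of the separation was therefore made of small differences: over all genes tested the median log2 difference was 0.0035 and the range from the 5th to the 95th percentile was −0.33 to 0.35. Of the called genes, 30 higher and 34 lower ones did not overlap between the sets, meaning that all 5 libraries lay beyond all 9 (1.24% of all tested genes in each direction).

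Replicate 4 carried most of these counts. Without its 3 libraries, 19 genes were higher and 14 lower past both thresholds, and 32 and 22 at the adjusted p alone. Without the 2 libraries of replicate 5 there were 83 and 80, and 1063 and 1189. The fit without replicate 4 sets 2 libraries against 9 and has no *ap3b2* CRISPant in the smaller set. Of its 54 genes past the adjusted p, 52 also passed with all libraries, and 84 of the 114 called genes kept a log2 difference beyond 1 in the same direction. All libraries of this fit are also in the main fit, where the 114 genes were called, so the agreement is partly built in. The main fit takes libraries of the same replicate number as separate. With values averaged to 1 per replicate number, 0 genes passed in limma's moderated t-test, where the smallest adjusted p was 0.0626.

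The replicate sets differed within the controls too. In the controls alone (3 against 2 libraries), 56 genes were higher and 44 lower past both thresholds, and 313 and 490 at the adjusted p alone. In the *eef1a2* CRISPants alone 0 genes passed in edgeR's test, where 844 were higher and 1112 lower at an unadjusted p below 0.05 and the smallest adjusted p was 0.0749. These comparisons share no library. Of the genes past the adjusted p in controls, 280 of the 313 higher (89.5%) were higher in the *eef1a2* CRISPants as well, against 48.9% of all genes, and 427 of the 490 lower (87.1%) were lower, against 51.1%. A set difference that varied between conditions was found for 0 genes (0% of genes tested) in edgeR's interaction test, where 1792 genes (8.40%) had an unadjusted p below 0.05 and the smallest adjusted p was 0.510.

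The largest increases were those of *aqp5.L* and *rab41.S*, which were near absent in replicates 1 to 3 and present in replicates 4 and 5. *aqp5.L*, which encodes a water channel, measured 15.17 and 9.28 CPM in controls 4 and 5, 3.70 and 22.7 CPM in *eef1a2* CRISPants 4 and 5, and 17.4 CPM in *ap3b2* CRISPant 4. In replicates 1 to 3 it lay at 0 to 0.0714 CPM (median 0), with 4 read pairs counted in all 9 libraries against 2970 in the other 5. The pooled ratio was 1260 (95% interval 492 to 4627, counting error only), and the fit gave a log2 difference 9.98 ± 0.58, adjusted p = 1.22e-06. *aqp5.S*, its homeolog, was too low to be tested and lay at 0 to 0.180 CPM over all 14 libraries.

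*rab41.S*, a small GTPase gene of the Rab family, measured 3.62 and 6.02 CPM in controls 4 and 5, 3.19 and 4.01 CPM in *eef1a2* CRISPants 4 and 5, and 5.78 CPM in *ap3b2* CRISPant 4, against 0 to 0.204 CPM (median 0.0513) in replicates 1 to 3 (log2 difference 6.40 ± 0.36, adjusted p = 1.22e-06). It was counted 985 times in replicates 4 and 5 and 20 times in replicates 1 to 3. *aqp5.L* and *rab41.S* were the only tested genes below 0.5 CPM in every library of one set and above 2 CPM in every library of the other. The other copy, *rab41.L*, lay at 357 to 474 CPM and 345 to 493 CPM (median 461) and did not pass the test (log2 difference −0.035 ± 0.061, adjusted p = 0.785).

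The same split was seen in *uprt.S*, a gene of the uracil phosphoribosyltransferase family of pyrimidine salvage. Its values in control 4, control 5, *eef1a2* CRISPants 4 and 5 and *ap3b2* CRISPant 4 were 2.15, 3.86, 2.71, 1.67 and 4.05 CPM, an order used for the lists of 5 values from here on. Replicates 1 to 3 gave 0.0243 to 0.312 CPM (median 0.128, log2 difference 4.20 ± 0.31, adjusted p = 9.66e-06), while *uprt.L* differed by −0.046 (adjusted p = 0.717). *tsr2.S*, a ribosome maturation factor gene, measured 2.17, 3.73, 1.80, 1.34 and 3.30 CPM against 0.0255 to 0.539 CPM (median 0.168, log2 difference 3.68 ± 0.42, adjusted p = 3.46e-04), and *tsr2.L* did not pass (−0.084, adjusted p = 0.723). In both genes 1 copy separated the sets and no separation was detected in the other. The lack of overlap was a condition for naming *aqp5.L*, *rab41.S*, *uprt.S* and *tsr2.S*, while their homeologs faced no such rule. All of these named copies also passed the filter only through replicates 4 and 5. The contrast between copies is therefore set at least in part by that choice.

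*gsto1.S*, a glutathione transferase gene, was expressed in both sets and measured 12.1, 8.92, 18.5, 9.02 and 17.9 CPM against 1.72 to 4.33 CPM (median 2.27, log2 difference 2.42 ± 0.22, adjusted p = 6.25e-05). Its homeolog *gsto1.L* was higher by a smaller amount (log2 difference 0.39 ± 0.11, adjusted p = 0.0346). *pcnt.L*, which encodes the centrosome scaffold pericentrin, measured 29.9, 70.7, 94.0, 110.3 and 76.4 CPM against 13.8 to 24.96 CPM (median 15.8, log2 difference 2.01 ± 0.18, adjusted p = 5.93e-05), and control 4 was the lowest of the 5. *traf1.L*, an adaptor gene of tumour necrosis factor receptors, ranged from 2.00 to 9.81 CPM against 0.657 to 1.84 CPM (median 1.09, log2 difference 2.07 ± 0.29, adjusted p = 0.00144). *tnfrsf11b.L*, the gene of the decoy receptor osteoprotegerin, ranged from 6.91 to 17.8 CPM against 2.396 to 3.63 CPM (median 2.99, log2 difference 1.87 ± 0.18, adjusted p = 9.89e-05). The lack of overlap between the sets was a condition for naming these 4 genes. The remaining 2 of the 10 largest non-overlapping increases were *trim39l.3.L* 2.13 and *chadl.L* 2.01, an E3 ligase and a cartilage matrix protein gene of low level. Both passed the filter only through replicates 4 and 5. The homeolog *trim39l.3.S* also passed edgeR's test as higher (log2 difference 0.50, adjusted p = 0.00175). *tnfrsf11b.S* was at 0.58 and did not pass (adjusted p = 0.0674).

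The decreases were likewise led by a gene that was near absent in one of the sets. *muc2l.L*, a mucin-like gene, was listed at 0 in 4 of the 5 libraries and at 0.0716 CPM in *eef1a2* CRISPant 5, against 0.633 to 4.05 CPM (median 2.14) in replicates 1 to 3. It was counted 815 times in replicates 1 to 3 and 3 times in replicates 4 and 5, a pooled ratio of 160 (95% interval 54.6 to 778, counting error only). *irf5.L*, an interferon regulatory factor gene, measured 2.63 and 1.75 CPM in controls 4 and 5, 2.84 and 3.03 CPM in *eef1a2* CRISPants 4 and 5, and 1.78 CPM in *ap3b2* CRISPant 4, and 7.74 to 47.2 CPM (median 18.3) in replicates 1 to 3 (log2 difference −3.07 ± 0.33, adjusted p = 2.35e-04). *irf5.S* did not pass the test (log2 difference 0.041 ± 0.16, adjusted p = 0.915). The lack of overlap between the sets was a condition for naming *muc2l.L* and *irf5.L*, as for the other largest decreases.

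*vps11.L*, a gene for endosome and lysosome tethering, measured 0.105, 0.345, 0.304, 0.453 and 0.0963 CPM against 0.878 to 2.95 CPM (median 2.07, log2 difference −2.94 ± 0.35, adjusted p = 5.49e-04), while *vps11.S* differed by 0.097 (adjusted p = 0.246). *tk2.L*, the mitochondrial thymidine kinase gene, measured 0.190, 0.302, 0.253, 0.239 and 0.265 CPM against 0.998 to 2.46 CPM (median 1.53, log2 difference −2.81 ± 0.26, adjusted p = 6.25e-05), with *tk2.S* at −0.28 (adjusted p = 0.352). *gorab.S*, a golgin gene, measured 0.463, 0.864, 0.278, 0.286 and 0.554 CPM against 1.31 to 3.60 CPM (median 3.12, log2 difference −2.54 ± 0.29, adjusted p = 3.49e-04), with *gorab.L* at −0.22 (adjusted p = 0.353). Again the other copy of each did not pass. The other named decreases were *smim22.L* −3.52, *ppic.S* −2.46, *tex47.L* −2.31, *ripk3l.2.L* −2.25 and *marchf1.S* −2.20 on the log2 scale, a small membrane protein, a cyclophilin, a testis-expressed gene, a kinase-like gene of the RIPK3 type and a membrane ubiquitin ligase.

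**Figure D2:**
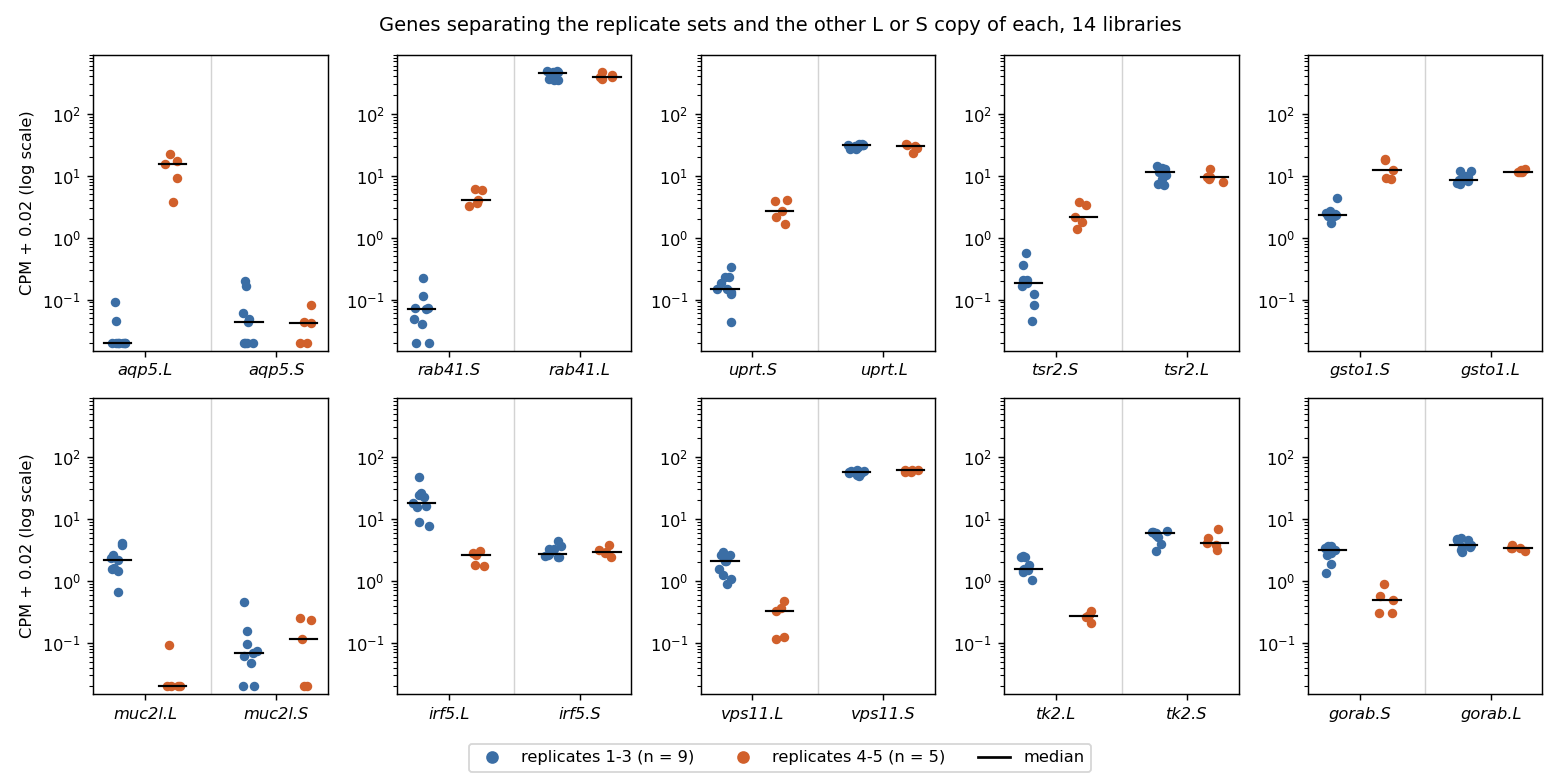
CPM (plus 0.02, log axis) of 10 genes that separate the replicate sets and, to the right in each panel, of the other L or S copy, with 1 point per library (blue, 9 libraries of replicates 1 to 3; orange, 5 libraries of replicates 4 and 5) and a bar at the median. *aqp5.L* and *rab41.S* are near the floor in all blue points and not in the orange ones, *muc2l.L* shows the opposite, and for *rab41*, *uprt*, *vps11* and *irf5* the points of the other copy overlap.

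Some differences were large in reads, though not by the rule for the largest folds. The genes in this paragraph were chosen after their values were seen. *elk4.S*, an ETS transcription factor gene, measured 17.2, 48.9, 67.9, 99.4 and 88.0 CPM against 110.5 to 219 CPM (median 176, log2 difference −1.45 ± 0.22, adjusted p = 0.00230), and *elk4.L* did not pass (0.21, adjusted p = 0.341). *tkt.S*, the gene of the pentose phosphate enzyme transketolase, measured 31.6, 27.5, 35.9, 33.2 and 29.3 CPM against 10.09 to 14.6 CPM (median 13, log2 difference 1.3 ± 0.078, adjusted p = 1.33e-06), and *tkt.L* differed by −0.0063 (adjusted p = 0.959). *oxct1.S*, a ketone body enzyme gene, differed by −1.96 ± 0.24 and *oxct1.L* by 0.0075. *phf20l1.S*, a chromatin reader gene, differed by −1.46 ± 0.12 and *phf20l1.L* by −0.27 ± 0.074. *ldha.L*, a lactate dehydrogenase gene, was higher in all 5 libraries (122, 152, 123, 149 and 151 CPM against 87.3 to 102 CPM (median 94.6), log2 difference 0.58 ± 0.054, adjusted p = 6.25e-05).

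Over the called genes, 31 of the 56 higher ones had a homeolog that was tested, of which 10 passed the adjusted p in the same direction and 0 in the opposite one. The median log2 difference was 1.47 for these genes and 0.17 for their homeologs. Of the 58 lower genes, 25 had a tested homeolog and 3 of those passed in the same direction, with medians of −1.45 and −0.083. The called genes had to pass the fold threshold, while their homeologs did not. A gap between these medians is therefore set at least in part by that choice. It is no separate evidence that single copies differ. Among genes past the adjusted p alone, 202 of 693 tested homeologs of higher genes (29.1%) and 162 of 769 of lower genes (21.1%) moved the same way, against 4.61% and 4.84% of all genes, and 10 and 10 the opposite way. Where the copies are nearly identical in sequence, counting may have assigned reads of one to the other, which leaves the values of single copies uncertain. Positions in the gene table were known for 34 of the higher and 36 of the lower genes. These lay on 15 and 16 chromosomes, and 6 higher and 0 lower genes had a called neighbour of the same direction within 1 Mb.

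Some of the genes named so far were then fitted with each replicate number alone. Those named by the rule for the largest folds had no overlap between the sets, so they had to differ with either number. The others were chosen with their values in view, so agreement between the numbers is no separate support. With replicate 5 alone set against replicates 1 to 3, the log2 differences were 9.74 for *aqp5.L* (edgeR adjusted p = 4.23e-05), 7.04 for *rab41.S* (1.94e-04), 4.05 for *uprt.S* (0.00329), 2.35 for *pcnt.L* (1.94e-04), 1.27 for *tkt.S* (0.00120) and 0.73 for *ldha.L* (5.09e-05). The lower genes gave −1.23 for *phf20l1.S* (0.00260), −3.20 for *marchf1.S* (0.00260), −3.14 for *irf5.L* (0.0464) and −1.19 for *elk4.S* (0.00846). With replicate 4 alone, which uses the same replicates 1 to 3, the values were 9.67, 6.21, 4.17, 1.75, 1.33 and 0.48 for the higher genes and −1.60, −1.80, −3.0 and −1.71 for the lower genes. Others lost the adjusted p without replicate 4, among them *muc2l.L* (−5.86, 0.0727), *vps11.L* (−2.34, 0.0928), *trim39l.3.L* (1.74, 0.244), *chadl.L* (2.28, 0.0928), *gorab.S* (−2.31, 0.0895) and *ppic.S* (−2.24, 0.107).

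Marker genes of the posterior brain were higher in replicates 4 and 5. Of 44 tested hindbrain genes, 17 passed the adjusted p as higher and 0 as lower (4.61% and 4.84% of all genes), and the median log2 difference was 0.32 against 0.0035 for all genes. Besides *hox* genes these were *mafb*, which patterns the rhombomeres, *barhl1* and *atoh1*, which mark rhombic lip derivatives such as cerebellar granule cells, and *lbx1*, a dorsal interneuron gene. The list members and other genes named from here on were chosen after their values were seen, unless they were called at a fold above 2. The list counts from all libraries that follow are to be read against the same shares of all genes, 4.61% higher and 4.84% lower.

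*mafb.S* measured 22.3, 20.8, 26.4, 19.9 and 22.3 CPM against 16.6 to 19.1 CPM (median 18.14), without overlap (log2 difference 0.31 ± 0.067, adjusted p = 0.0126). *hoxb4.L* measured 2.76, 1.55, 3.29, 2.03 and 3.11 CPM against 0.414 to 1.90 CPM (median 1.48, log2 difference 1.05 ± 0.26, adjusted p = 0.0223). *hoxd3.L* measured 14.2, 11.4, 16.2, 7.09 and 15.99 CPM against 5.79 to 10.2 CPM (median 7.57, log2 difference 0.78 ± 0.19, adjusted p = 0.0229). For both *hox* genes the 3 libraries of replicate 4 were above all of replicates 1 to 3, whereas replicate 5 was nearer to them. *barhl1.L* measured 40.4, 38.9, 36.7, 32.2 and 40.3 CPM against 22.6 to 35.1 CPM (median 30.2, log2 difference 0.40 ± 0.087, adjusted p = 0.0139). Further differences were *hoxa4.S* 0.92, *hoxb3.L* 0.81, *hoxd4.S* 0.78, *hoxd4.L* 0.69, *hoxa3.L* 0.43, *hoxa2.S* 0.34, *lbx1.L* 0.49 and *atoh1.S* 0.44, and 2 GABA-A receptor genes that mark cerebellar granule cells in mammals were also higher (*gabra6.S* 0.65 and *gabrd.L* 0.75).

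Among 74 *hox* genes counted, 26 were expressed enough to be tested, and the log2 difference was positive in 25 of them (13 past the adjusted p, 0 lower, median 0.58). The median difference was 0.0035 in paralog group 1 (3 tested genes), 0.25 in group 2 (3), 0.49 in group 3 (8), 0.68 in group 4 (8) and 0.87 in group 5 (4). It thus rose with the group number, a trend that was not tested. All 8 genes of group 3 and 4 of 8 in group 4 passed the adjusted p and 0 of 4 in group 5. Summed over its genes, group 4 measured 56.2, 27.2, 55.8, 38.5 and 50.1 CPM against 14.3 to 46.6 CPM (median 32.9), and group 5 19.0, 4.60, 12.3, 8.68 and 10.2 CPM against 2.21 to 9.93 CPM (median 6.79). Control 4 and *eef1a2* CRISPant 4 were highest in both sums. Controls were lower than CRISPants among replicates 1 to 3. Control 5 was below the median over all 9 of these libraries, but above each of controls 1 to 3, which measured 14.3, 20.5 and 25.1 CPM in group 4 and 2.21, 4.36 and 4.45 CPM in group 5. The 43 genes of groups 6 to 13, which are spinal in their expression, were all too low to be tested. Their summed level was 2.99, 0.518, 1.57, 2.12 and 1.08 CPM against 0.0974 to 1.44 CPM (median 0.643), and control 4 was the highest of the 14 libraries.

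Motor neuron genes gave 2 of 34 tested members higher and 1 lower (median 0.056), and the highest of them, *prph.L*, did not pass (adjusted p = 0.614). Midbrain genes gave 4 of 43 tested members higher and 1 lower (median 0.062). The higher ones were *lhx1.L* and *otx2.L* and the *barhl1* copies that the hindbrain list also holds, and the lower one was *th.S*, tyrosine hydroxylase of dopamine neurons, at 15.7, 13.7, 9.57, 12.17 and 12.3 CPM against 15.8 to 20.3 CPM (median 19.5, log2 difference −0.55 ± 0.089, adjusted p = 0.00310).

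Forebrain genes went the other way, with 2 of 61 tested members higher and 12 lower and a median of −0.20. *lhx6.L*, a gene of ventral telencephalic interneurons, measured 7.84, 7.38, 7.59, 7.30 and 6.04 CPM against 8.57 to 11.7 CPM (median 10.7), without overlap (log2 difference −0.55 ± 0.083, adjusted p = 0.00217). *dlx1.L*, of the same lineage, measured 52.6, 49.1, 43.7, 58.5 and 47.4 CPM against 60.4 to 77.7 CPM (median 66.6), again without overlap (log2 difference −0.40 ± 0.076, adjusted p = 0.00678). *fezf1.L* measured 18.5, 17.6, 15.09, 19.6 and 15.7 CPM against 21.1 to 26.1 CPM (median 22.7, log2 difference −0.39 ± 0.075, adjusted p = 0.00741), and *nkx2-4.S*, a ventral forebrain gene, 6.97, 6.11, 5.72, 7.44 and 5.56 CPM against 8.60 to 11.4 CPM (median 8.94, log2 difference −0.56 ± 0.10, adjusted p = 0.00483). In each of these 4 genes all 5 libraries lay below all 9. Smaller or overlapping differences were found for *dlx1.S* −0.34, *nkx2-4.L* −0.36, *tbr1.L* −0.37, *isl1.S* −0.46, *six3.S* −0.35 and *nkx2-1.L* −0.29. The 2 forebrain genes that were higher, *lhx5.S* 0.31 and *irx1.L* 0.22, mark the diencephalon among other regions.

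**Figure D3:**
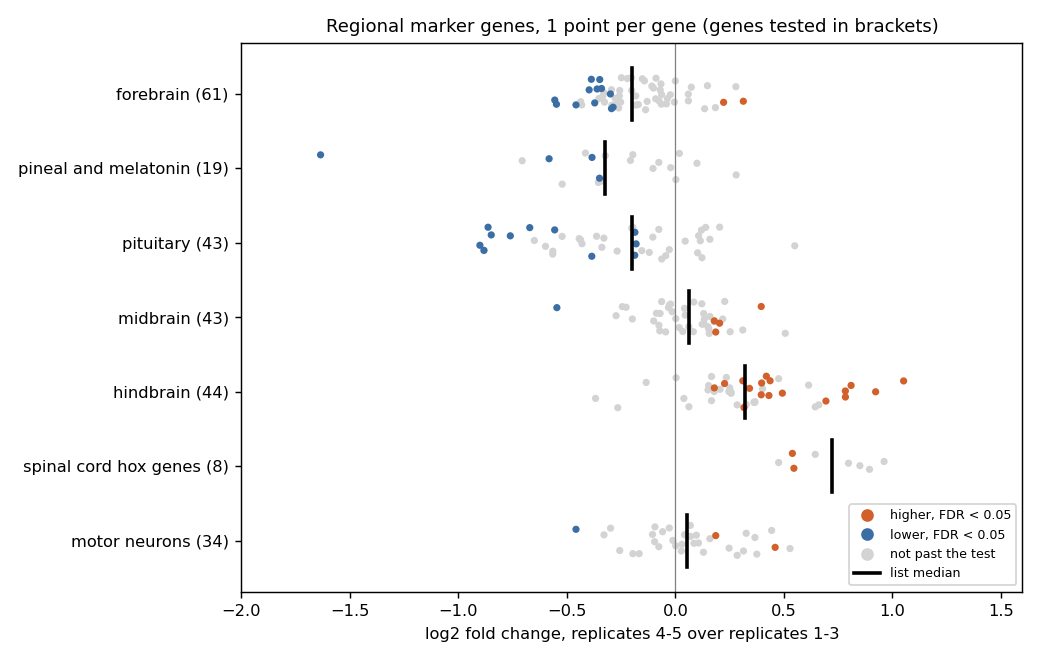
Log2 difference of replicates 4 and 5 over replicates 1 to 3 (x axis) for each tested gene of 7 regional lists, with orange and blue points for genes past an adjusted p of 0.05 and a black bar at the list median. Hindbrain genes lie mainly to the right (17 higher, 0 lower, median 0.32) and forebrain, pituitary and pineal genes mainly to the left (medians −0.20, −0.20 and −0.32). The points of the spinal cord *hox* list include no gene of groups 6 to 13.

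Hormone and neuropeptide genes of the pituitary and hypothalamus were lower, with 0 of 43 tested members higher and 11 lower and a median of −0.20. *pomc.L*, the precursor of ACTH and MSH made by the pituitary and hypothalamus, measured 48.5, 28.1, 24.4, 35.4 and 17.0 CPM against 39.4 to 57.9 CPM (median 51.4, log2 difference −0.76 ± 0.19, adjusted p = 0.0256), and control 4 lay within replicates 1 to 3. *tshb.S*, the thyrotropin beta subunit, measured 14.7, 9.61, 8.56, 8.95 and 6.09 CPM against 12.19 to 23.0 CPM (median 17.4, log2 difference −0.88 ± 0.18, adjusted p = 0.00861). *cga.L*, the alpha subunit shared by the glycoprotein hormones, measured 3.01, 2.22, 1.82, 2.10 and 1.47 CPM against 2.52 to 4.80 CPM (median 3.92, log2 difference −0.85 ± 0.15, adjusted p = 0.00455). For both subunits control 4 was the highest of the 5 libraries and *ap3b2* CRISPant 4 the lowest. *pomc.S* −0.86 and *cga.S* −0.67 differed in the same direction.

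Some peptide and amine genes known from the hypothalamus follow, which form no list and were picked with their values in view. *pmch.S*, the precursor of melanin-concentrating hormone, measured 8.36, 5.35, 4.61, 5.89 and 6.26 CPM against 9.60 to 14.7 CPM (median 10.8, log2 difference −0.90 ± 0.13, adjusted p = 0.00175). *agrp.L*, a feeding peptide gene outside the lists, measured 2.32, 1.51, 1.90, 1.22 and 1.85 CPM against 2.96 to 4.31 CPM (median 3.98, log2 difference −1.10 ± 0.16, adjusted p = 0.00175). *oxt.L*, the oxytocin family precursor, measured 13.8, 13.6, 13.1, 14.1 and 12.3 CPM against 14.1 to 29.2 CPM (median 20.2, log2 difference −0.56 ± 0.13, adjusted p = 0.0215). None of these 3 overlapped between the sets, *oxt.L* by a narrow margin. *hdc.L* and *hdc.S*, which make histamine, differed by −1.13 ± 0.21 and −1.03 ± 0.20. The summed level of the pituitary list was 2219.8 to 2638 CPM in replicates 4 and 5 and 2311 to 2764 CPM in replicates 1 to 3, where secretory granule genes such as *scg2.L* (−0.19) take a large share.

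Pineal and melatonin genes gave 0 of 19 tested members higher and 4 lower (median −0.32). *parapinopsin.L*, a pineal photopigment gene, measured 0.948, 0.540, 1.27, 0.859 and 0.795 CPM against 1.33 to 4.69 CPM (median 2.32, log2 difference −1.64 ± 0.30, adjusted p = 0.00542), without overlap. *aanat.L*, the rate-limiting enzyme of melatonin synthesis, differed by −0.58 ± 0.16, and *tph2.L* −0.38 and *tph2.S* −0.35, serotonin synthesis genes of raphe and pineal, were lower as well. Retina and lens genes, which share photoreceptor genes with the pineal, gave 2 of 43 tested members higher and 2 lower (median −0.11).

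The regional lists were then fitted with each replicate number alone, over the same replicates 1 to 3. With replicate 5 alone, edgeR's test passed 0 hindbrain genes (4 of 44, 9.09%, at an unadjusted p below 0.05 against 5.61% of all genes) with a median of 0.15, whereas replicate 4 alone passed 21 with a median of 0.43. Forebrain genes gave 0 lower with replicate 5 alone (5 of 61, 8.197%, unadjusted, against 4.65% of all genes, median −0.12) and 16 lower with replicate 4 alone (median −0.24). The spinal cord *hox* list had medians of 0.28 and 0.95. Its 8 tested members include 0 genes of groups 6 to 13, so these medians do not describe genes confined to the spinal cord. The pituitary list stood at −0.22 with replicate 5 alone, with 14 of 43 (32.6%) lower at an unadjusted p below 0.05 and 1 past the adjusted p, and at −0.26 with replicate 4 alone. Pineal genes stood at −0.30, with 6 of 19 (31.6%) lower unadjusted and 0 past the edgeR adjusted p, and at −0.22. The hindbrain and forebrain medians were thus larger in size with replicate 4, and the pituitary and pineal medians lay close together with either number. The difference between the numbers was not tested. Within replicate 4 the pituitary list varied. Its mean log2 deviation from the condition mean was 0.11 in control 4. It was −0.21 in *eef1a2* CRISPant 4 and −0.42 in *ap3b2* CRISPant 4. Controls 1 to 3 gave −0.030, 0.013 and 0.21, control 5 −0.30 and *eef1a2* CRISPant 5 −0.14. By condition the list median was −0.15 in controls and −0.21 in *eef1a2* CRISPants. In *ap3b2* CRISPants it was −0.57, from 1 library of replicates 4 and 5.

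**Figure D4:**
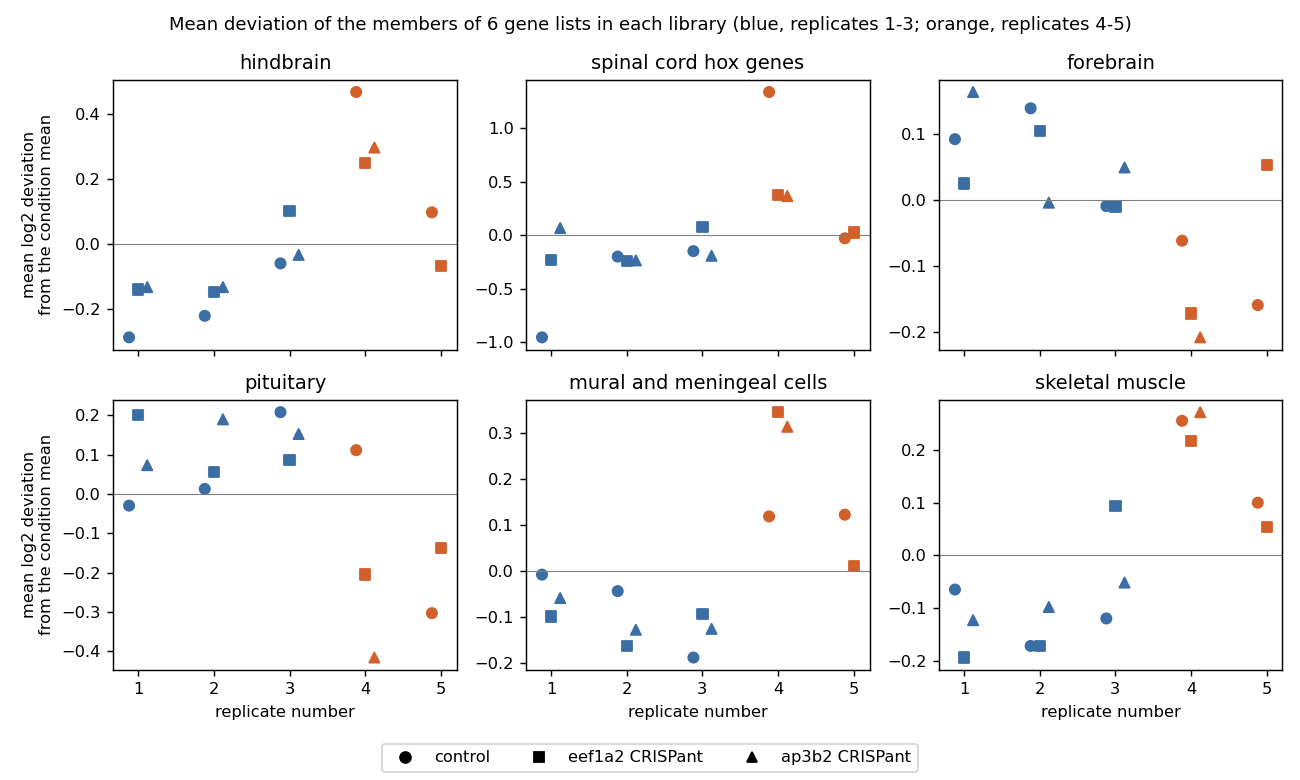
Mean log2 deviation of the members of 6 gene lists from the mean of their condition (y axis) in each library, by replicate number (x axis), with the marker giving the condition and orange marking replicates 4 and 5. Hindbrain genes and the spinal cord *hox* list, whose tested members include none of groups 6 to 13, are highest in replicate 4 (0.25 to 0.47 for hindbrain genes). Replicate 5 lies near the condition mean for hindbrain genes (0.098 and −0.066), a mean that includes replicates 4 and 5. Replicates 1 to 3 lie at −0.29 to −0.059 in controls and −0.15 to 0.10 in *eef1a2* CRISPants. Mural and meningeal genes are highest in *eef1a2* CRISPant 4 and *ap3b2* CRISPant 4 (0.34 and 0.31).

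Genes of the meninges, pericytes and the matrix around vessels were higher. Of 47 tested, 20 passed the adjusted p as higher and 0 as lower, with a median of 0.27. *col1a2.S*, a fibrillar collagen chain, measured 13.4 and 15.9 CPM in controls 4 and 5, 18.7 and 23.0 CPM in *eef1a2* CRISPants 4 and 5, and 17.9 CPM in *ap3b2* CRISPant 4, and 6.44 to 9.71 CPM (median 7.45) in replicates 1 to 3 (log2 difference 1.15 ± 0.076, adjusted p = 3.25e-06), without overlap. It also passed with replicate 5 alone (1.28, adjusted p = 3.48e-04). *dcn.S*, the collagen-binding proteoglycan decorin, measured 1.88, 1.40, 1.27, 1.19 and 1.88 CPM against 0.476 to 1.39 CPM (median 0.613, log2 difference 1.03 ± 0.20, adjusted p = 0.00793). *col6a3.L* measured 5.499, 7.25, 9.21, 6.20 and 6.41 CPM against 3.54 to 4.77 CPM (median 4.21), without overlap (log2 difference 0.71 ± 0.11, adjusted p = 0.00290), and *fbln1.L*, a basement membrane protein gene, 66.4, 55.4, 58.1, 42.3 and 61.9 CPM against 28.2 to 46.7 CPM (median 37.8, log2 difference 0.62 ± 0.093, adjusted p = 0.00209). *col1a1.S* did not overlap either (42.7 to 56.8 CPM against 24.8 to 39.0).

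The prostaglandin D synthase gene *ptgds.S*, an abundant meningeal transcript, measured 3246, 3265, 3962, 3651 and 3459 CPM against 1949 to 3265 CPM (median 2346, log2 difference 0.46 ± 0.12, adjusted p = 0.0262), and it made up most of the summed level of the list, which did not overlap between the sets (4303 to 5015 CPM in replicates 4 and 5 and 2780.2 to 4118 CPM in replicates 1 to 3). Other higher members were *fn1.L* 0.56, *postn.L* 0.53, *ogn.L* 0.73, *foxc2.L* 0.52, *col6a1.L* 0.64, *col1a2.L* 0.49 and *col1a1.L* 0.52. With replicate 5 alone the list median was 0.14 and 1 member passed the edgeR adjusted p. At an unadjusted p below 0.05, 16 of 47 members (34.0%) were higher and 0 lower, against 5.61% and 4.65% of all genes. Replicate 4 alone gave a median of 0.37 and 19 members. Cartilage and bone genes gave 1 of 34 tested members higher and 0 lower (median 0.026).

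Vessel genes gave 8 of 61 tested members higher and 1 lower, with a median of 0.30. *tie1.L*, an endothelial receptor gene, measured 12.51, 13.9, 14.5, 12.1 and 13.5 CPM against 8.21 to 11.98 CPM (median 10.3), without overlap (log2 difference 0.39 ± 0.086, adjusted p = 0.0135). The exception was *slc2a1.L*, the glucose transporter of the blood–brain barrier, which was lower at 279, 264, 246, 225 and 281 CPM against 288 to 376 CPM (median 350.5), also without overlap (log2 difference −0.40 ± 0.059, adjusted p = 0.00190). *cdh5.S*, VE-cadherin of endothelial junctions, differed by 0.93 ± 0.24, but its level in replicates 1 to 3 ran from 0.770 to 4.53 CPM with controls above CRISPants. The summed level of the list overlapped (926 to 1074 CPM in replicates 4 and 5 and 950.2 to 1115 CPM in replicates 1 to 3). The median with replicate 5 alone was 0.13 and 0 members passed in edgeR's test (5 higher and 1 lower unadjusted). The libraries of replicates 4 and 5 varied. The mean log2 deviation of the list from the condition mean was 0.45 in *eef1a2* CRISPant 4 and 0.51 in *ap3b2* CRISPant 4. It was −0.0012 in control 4, 0.17 in control 5 and −0.13 in *eef1a2* CRISPant 5. Controls 1 to 3 lay at −0.13 to −0.00030 and *eef1a2* CRISPants 1 to 3 at −0.25 to 0.030.

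Red blood cell genes gave 5 of 29 tested members higher and 1 lower (median 0.21), with *rhag.L* 1.03, *gata1.S* 0.82, *hba4.S* 0.54 and *alas2.L* 0.53 higher and *fech.S*, the last enzyme of haem synthesis, lower (log2 difference −1.45 ± 0.38, adjusted p = 0.0306). Their summed level was 1469 to 2296 CPM in replicates 4 and 5 and 1340.2 to 2050.2 CPM in replicates 1 to 3. Liver genes gave 6 of 28 tested members higher and 1 lower (median 0.18), and 51 of the 79 in the table were too low to be tested. *rbp4.L*, the retinol carrier, measured 50.6, 28.9, 39.9, 25.9 and 43.5 CPM against 8.06 to 25.7 CPM (median 14.5), without overlap (log2 difference 1.42 ± 0.27, adjusted p = 0.00659), and *fbp1.L* did not overlap either (0.74 ± 0.12). Choroid plexus genes, some of which also mark meninges and roof plate, gave 5 of 26 tested members higher and 1 lower (median 0.17). With replicate 5 alone 0 members of these 3 lists passed in edgeR's test, while 3, 7 and 4 were higher and 2, 2 and 1 lower unadjusted for red blood cell, liver and choroid plexus genes.

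Skeletal muscle genes were split. Of the 93 in the table only 35 were tested, of which 11 were higher and 3 lower (median 0.16), and their summed level was 118 to 155 CPM in replicates 4 and 5 and 100.4 to 137 CPM in replicates 1 to 3. *actc1.L*, a striated muscle actin, measured 3.77, 2.31, 5.01, 3.53 and 6.69 CPM against 0.803 to 2.51 CPM (median 1.46, log2 difference 1.64 ± 0.19, adjusted p = 4.19e-04). *atp2a1.S*, the calcium pump of fast fibres, measured 0.948, 1.01, 2.13, 1.26 and 2.63 CPM against 0.292 to 0.923 CPM (median 0.382), without overlap (log2 difference 1.75 ± 0.23, adjusted p = 0.00103). *ckm.L*, muscle creatine kinase, measured 5.90, 2.96, 9.52, 3.36 and 9.78 CPM against 2.34 to 4.53 CPM (median 3.38, log2 difference 0.93 ± 0.26, adjusted p = 0.0376). Its replicate 5 values lay within replicates 1 to 3, and without replicate 4 the difference was −0.0075 (adjusted p = 0.996). *myl1.S* 1.71 and *atp2a1.L* 2.16 were higher, as were 3 genes outside the list, *acta4.L* 1.98, *myl11.L* 1.47 and *myl11.S* 1.51. The filter was met by *atp2a1.S*, *atp2a1.L* and *myl1.S* only through replicates 4 and 5, where they are high. Their place among the higher members is therefore set in part by the filter. In contrast *casq2.S* −1.13, *myom1.S* −1.0 and *neb.S* −0.63 were lower. These genes encode a calcium store protein, a sarcomeric M band protein and nebulin. Replicate 5 alone gave 0 members past edgeR's test, and the list median was 0.047. Unadjusted, 7 of 35 (20.0%) were higher and 3 (8.57%) lower, against 5.61% and 4.65% of all genes.

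**Figure D5:**
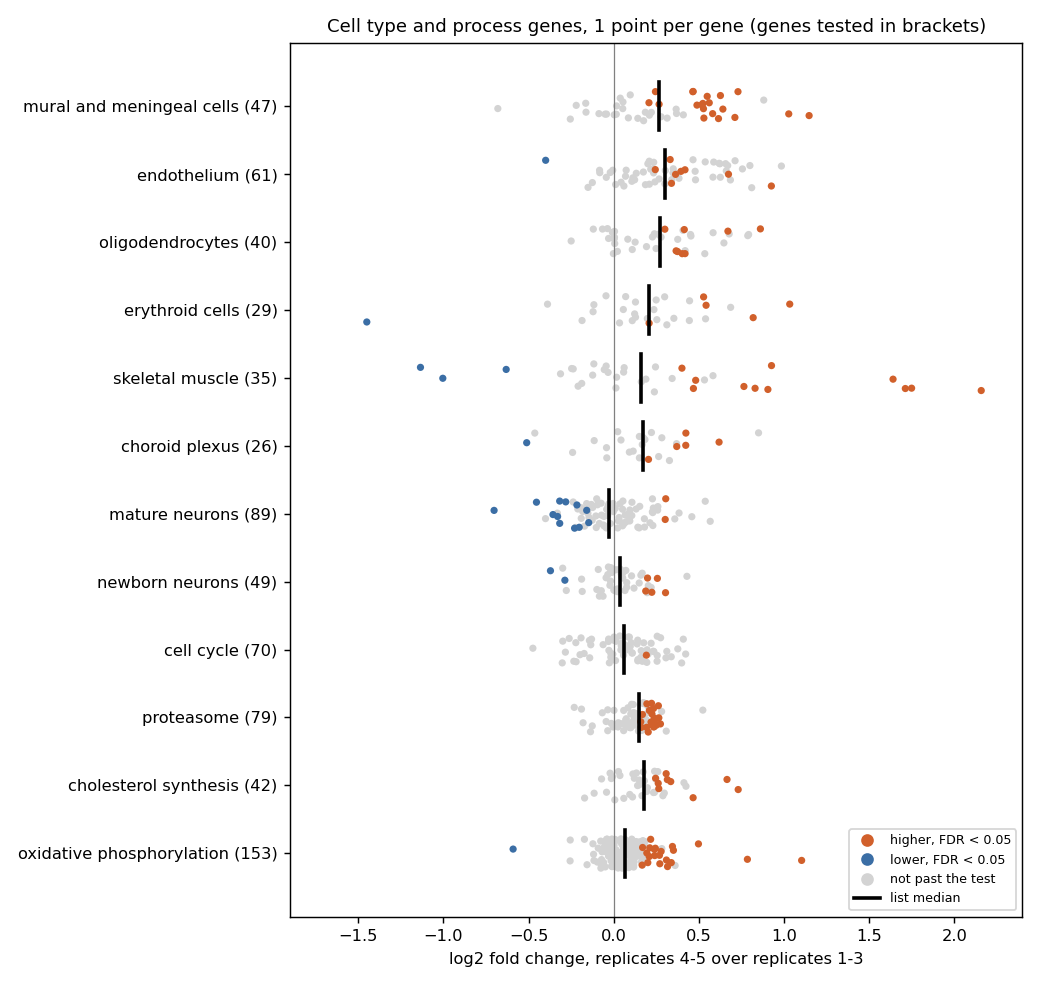
Log2 difference of replicates 4 and 5 over replicates 1 to 3 (x axis) for each tested gene of 12 cell type and process lists, coloured where the adjusted p is below 0.05, with a black bar at the list median. Mural and meningeal, oligodendrocyte and endothelial genes are shifted to the right (medians 0.27, 0.27 and 0.30), skeletal muscle genes spread widely, and mature neuron and cell cycle genes centre near 0 (−0.029 and 0.06).

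Epidermis, which would carry over as skin, gave 3 of 38 tested members higher and 1 lower (median 0.079), and its most abundant member, *krt8.S*, did not pass (log2 difference 0.076 ± 0.082, adjusted p = 0.635). Of its 104 genes in the table, 66 were too low to be tested and 5 had no count. Exocrine pancreas gave 0 of 8 tested members higher and 1 lower, inner ear 3 of 28 tested members higher and 3 lower and microglia and leukocytes 5 of 34 tested members higher and 2 lower (medians −0.14, −0.077 and 0.09). The part of meningeal, blood, muscle and other non-neural RNA in the regional differences was not tested.

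Oligodendrocyte genes were higher, with 8 of 40 tested members higher and 0 lower and a median of 0.27. *mbp.S*, a myelin protein gene, measured 222, 220.2, 184, 196 and 178 CPM against 107 to 196 CPM (median 145, log2 difference 0.41 ± 0.091, adjusted p = 0.0139). *sox10.S*, the lineage transcription factor, measured 12.64, 13, 12.56, 10.2 and 11.6 CPM against 8.40 to 10.9 CPM (median 9.14, log2 difference 0.37 ± 0.077, adjusted p = 0.0100). In both genes the lowest of the 5 libraries lay within replicates 1 to 3. *cnp.L* differed by 0.86 ± 0.22 and was itself higher in controls than in CRISPants of both sets. The median stood at 0.22 with replicate 5 alone, where 0 members passed in edgeR's test (6 higher and 0 lower unadjusted), and at 0.33 with replicate 4 alone, where 7 passed.

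Neuronal genes had a median near that of all genes, and several synaptic genes among them were lower. Mature neuron genes gave 2 of 89 tested members higher and 12 lower with a median of −0.029, and their summed level was 19938 to 20585 CPM in replicates 4 and 5 and 20653 to 21412 CPM in replicates 1 to 3, which did not overlap. *gria1.S*, an AMPA receptor subunit, measured 222, 243, 216, 259 and 206 CPM against 265 to 312 CPM (median 289.9), without overlap (log2 difference −0.36 ± 0.052, adjusted p = 0.00175). *scn8a.S*, a voltage-gated sodium channel, measured 79.8, 89.1, 80.9, 99.4 and 85.9 CPM against 96.9 to 144 CPM (median 119.8, log2 difference −0.45 ± 0.072, adjusted p = 0.00290). *camk2a.S*, the postsynaptic kinase, differed by −0.33 ± 0.07, and *gria1.L*, *gria2.L* and *gria2.S* by −0.32, −0.28 and −0.32. *nefl.S* and *calb1.S*, a neurofilament and a calcium buffer gene of large projection and Purkinje neurons, were higher (0.30 and 0.31).

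Over families, glutamate receptor genes gave 1 of 47 tested members higher and 6 lower but a positive median (0.066), potassium and sodium channels 2 of 107 tested members higher and 9 lower (median −0.068), and axon guidance genes 1 of 126 tested members higher and 8 lower (median −0.0032). GABA and glycine genes gave 2 of 45 tested members higher and 2 lower (median 0.058). By condition, in controls, *eef1a2* CRISPants and *ap3b2* CRISPants in turn, the median was −0.15, −0.029 and 0.39 for GABA and glycine genes, −0.18, −0.088 and 0.14 for potassium and sodium channels and −0.064, 0.029 and 0.27 for glutamate receptor genes, where the *ap3b2* values rest on 1 library of replicates 4 and 5. The difference between conditions was not tested for these lists. For mature neuron genes, replicate 5 alone gave 0 past the edgeR adjusted p, with 1 higher and 13 lower unadjusted (14.6% against 4.65% of all genes).

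Gene lists that follow maturation had medians near that of all genes. Neural progenitor genes gave 4 of 50 tested members higher and 0 lower (median 0.035), and the 4 were *id3.L*, *id3.S*, *sox9.S* and *slc1a3.S*, which glia also express. Cell cycle genes gave 1 of 70 tested members higher and 0 lower, the single one being *rrm1.L* (0.19 ± 0.056), with a median of 0.06. Newborn neuron genes gave 5 of 49 tested members higher and 2 lower (median 0.036), among them *tubb2b.S* 0.22 and *sox4.L* 0.20. Thyroid hormone response genes, which follow the progress towards metamorphosis, gave 1 of 36 tested members higher and 0 lower (median 0.019). The summed level of cell cycle genes was 1082 to 1405 CPM in replicates 4 and 5 and 1043 to 1525 CPM in replicates 1 to 3, and that of thyroid hormone response genes 802 to 920.1 CPM in replicates 4 and 5 and 740.4 to 979 CPM in replicates 1 to 3, so both overlapped.

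Activity and stress genes are set beside all genes, of which 4.61% were higher and 4.84% lower. The shares were 3.17% and 4.76% for immediate early genes and 4.48% and 1.49% for heat shock and folding genes. Circadian clock genes stood at 1.85% and 7.41%. Immediate early genes gave 2 of 63 tested members higher and 3 lower (median 0.058), and *egr1.L* varied between libraries more than between sets (56.3 to 147 CPM against 36.8 to 177 CPM). Heat shock and folding genes gave 3 of 67 tested members higher and 1 lower (median 0.072), where the lower one was the constitutive chaperone *hspa8.L* (log2 difference −0.54 ± 0.14, adjusted p = 0.0289). Glucocorticoid response genes gave 1 of 36 tested members higher and 1 lower and circadian clock genes 1 of 54 tested members higher and 4 lower (medians 0.064 and 0.0017). *bmal2.L*, a clock activator, was called lower (log2 difference −1.58 ± 0.31, adjusted p = 0.00851), while *bmal2.S* did not pass (0.077, adjusted p = 0.747). Genes of the major histocompatibility complex (MHC) gave 0 of 16 tested members higher and 1 lower with a positive median (0.17), and their summed level overlapped (43.8 to 49.8 CPM in replicates 4 and 5 and 44.8 to 55.2 CPM in replicates 1 to 3). The lower one, the MHC class I gene *mhc1-uba3.L*, measured 1.98, 3.37, 2.38, 2.74 and 1.90 CPM against 5.21 to 8.99 CPM (median 6.52), without overlap (log2 difference −1.46 ± 0.17, adjusted p = 3.61e-04).

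Several metabolic groups were higher by small amounts. Proteasome genes gave 20 of 79 tested members higher and 0 lower with a median of 0.15, and *psmb1.L*, a core subunit, measured 44.7, 38.1, 46.6, 39.7 and 44.7 CPM against 32.9 to 37.8 CPM (median 36.0), without overlap (log2 difference 0.27 ± 0.055, adjusted p = 0.00918). Without replicate 4, 0 passed in edgeR's test (8 higher and 1 lower unadjusted, median 0.065), and without replicate 5, 34 passed (median 0.19). Cholesterol synthesis genes gave 9 of 42 tested members higher and 0 lower (median 0.18). *tm7sf2.L*, a sterol reductase, measured 59.6, 63.1, 72.5, 80.4 and 89.8 CPM against 34.2 to 52.3 CPM (median 44.4), without overlap (log2 difference 0.73 ± 0.081, adjusted p = 3.08e-04), and *acat2.L* also did not overlap (0.67 ± 0.14). The cholesterol median was 0.19 with replicate 5 alone, where 1 member passed, and 0.18 with replicate 4 alone. With replicate 5 alone 11 of 42 (26.2%) were higher unadjusted, against 5.61% of all genes, and 0 lower. The libraries of replicate 5 differed here. The mean log2 deviation of the list from the condition mean was −0.048 in control 5 and 0.27 in *eef1a2* CRISPant 5. By condition the median was 0.061 in controls and 0.33 in *eef1a2* CRISPants. In *ap3b2* CRISPants it was 0.17, from 1 library of replicates 4 and 5.

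Glycolysis and hypoxia genes gave 12 of 60 tested members higher and 2 lower (median 0.061). *gapdh.L*, a glycolytic dehydrogenase gene of high level, measured 804, 645, 766, 599.9 and 719 CPM against 532 to 606 CPM (median 599), with overlap (log2 difference 0.29 ± 0.065, adjusted p = 0.0163). Oxidative phosphorylation genes gave 21 of 153 tested members higher and 1 lower (median 0.065), the largest increase being that of *cox15.L*, a haem A synthase of complex IV assembly (log2 difference 1.1 ± 0.19, adjusted p = 0.00425), and with *sdha.L* of complex II at 90.3, 80.9, 81.5, 63.2 and 77.6 CPM against 53.9 to 72.9 CPM (median 59.0, log2 difference 0.34 ± 0.058, adjusted p = 0.00423). With replicate 5 alone 2 glycolysis and hypoxia genes and 1 oxidative phosphorylation gene passed. Ribosomal protein genes gave 2 of 152 tested members higher and 0 lower with a median of −0.063. Their median was 0.074 with replicate 5 alone and −0.12 with replicate 4 alone. Their set difference was 0.22 in controls, −0.10 in *eef1a2* CRISPants and −0.47 in *ap3b2* CRISPants by median, the last resting on 1 library of replicates 4 and 5. The difference between conditions was not tested for the list, and its summed level overlapped (75026 to 112931 CPM in replicates 4 and 5 and 68488 to 132128 CPM in replicates 1 to 3).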

How the data were processed

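RNA from pools of 6 stage 47 brains was sequenced as stranded mRNA libraries. The authors aligned the reads with STAR to the *X. laevis* v10.1 genome and deposited raw counts per gene from featureCounts (reverse stranded, each pair counted once) for 26807 genes. A second deposited table gives log2 CPM for 21328 genes, and its values equal log2 CPM recomputed from the counts with edgeR to within 4.99e-09 and were not used in a test.

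Samples were grouped by the condition and replicate number in their labels. The split of replicates, the 46 gene lists and the tests were chosen with earlier results of these data known. The counts were fitted with edgeR 4.0.16 in R version 4.3.3 (TMM, genes with CPM above 1 in at least 4 of 14 libraries, quasi-likelihood F test, condition plus replicate set), with Benjamini-Hochberg adjustment over all genes. Genes were called at an adjusted p below 0.05 and a fold change above 2. The SE of a log2 difference, given after ±, was derived from the F statistic. Principal components used log2 CPM with a prior count of 2. Before TMM scaling, as in the filter, a CPM of 1 stood for 36.6 to 46.7 counts. Intervals on ratios of summed counts are exact and cover counting error only. The fit was tested on simulated data.

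Genes were named if targeted, if among the 10 largest rises or falls (called, 10 or more counts in each library of the higher set, no overlap, uncharacterized identifiers skipped), if called in a list (up to 4 by p, otherwise the member of highest level) or if below 0.5 CPM in one set and above 2 CPM in the other. Lists are described by counts and medians without a test. Alternatives were DESeq2 1.42.0, library size scaling, other filters, glmTreat, removal of a trend with gene span, replicate blocks in limma 3.58.1, single conditions and left-out libraries. Homeologs were paired by symbol, and positions came from a RefSeq gene table.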

Additional observations from a re-analysis of the deposited data

Results flagged for a closer look

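6 values stood apart from the others of their replicate set by Dixon's criterion, among 60 sets of values examined. The rate of about 1 in 20 by chance assumes normally distributed values and does not apply to values near 0 CPM. *aqp5.L* was at 0.0714 CPM in *eef1a2* CRISPant 2, against 0 to 0.0257 CPM in the other libraries of replicates 1 to 3. *rab41.S* was at 0.204 CPM in *ap3b2* CRISPant 1, against 0 to 0.0953 CPM. *gsto1.S* was at 4.33 CPM in control 2, against 1.72 to 2.64 CPM. *irf5.L* was at 47.2 CPM in *eef1a2* CRISPant 1, against 7.74 to 26.3 CPM. In replicates 4 and 5, *muc2l.L* was at 0.0716 CPM in *eef1a2* CRISPant 5 and at 0 in the other 4 libraries. The summed level of the pituitary list was 2638 CPM in control 4, against 2219.8 to 2328 CPM in the other 4 libraries.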

How the results depend on the processing

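The number of genes called varied with the libraries and settings used. Over the fits that left out 1 library or all libraries of a replicate number, 19 to 83 genes were higher and 14 to 80 lower past both thresholds, and 32 to 1063 and 22 to 1189 at the adjusted p alone, with each lowest value without replicate 4 and each highest without replicate 5. The fit without replicate 4 sets 2 libraries against 9 and holds no *ap3b2* library of replicates 4 and 5, so replicate number and sample number cannot be told apart in it. *ckm.L* changed sign without replicate 4 (log2 difference −0.0075, adjusted p = 0.996, against 1.31 without replicate 5). The cause was not tested. The filter stated by the study, which drops any gene at or below 1 CPM in 4 or more libraries, gave 27 higher and 20 lower genes, since genes near absent in 1 set are removed. Without a filter beyond 1 count there were 121 and 104, and glmTreat against a fold change of 2 gave 7 and 10. Without the fold threshold the counts were 983 higher and 1032 lower. By this rule DESeq2 gave 1345 and 1568, and library size scaling 1320 and 831. Controls alone gave 313 and 490 genes at the adjusted p alone, both CRISPant groups without controls 174 and 271, and *eef1a2* CRISPants alone 0 and 0 under either rule. With the 500 most variable genes the second principal component held 10.7% of the variance.

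The labels give no shared batch or animal for a replicate number, and not every pair with the same number correlated above 0.1, so the numbers were not taken as pairing the libraries. Deviations from condition means of libraries with the same number correlated at a median of 0.23 (−0.22 to 0.63, 10 of 13 pairs over 0.1), against a median of 0.13 for other pairs within a replicate set, and 5 of 14 libraries correlated best with one of their own number. With the replicate number as a random replicate block in limma (consensus correlation −0.060), 52 genes were higher and 58 lower (1287 and 1415 at the adjusted p alone). With the replicate block by averaging (3 numbers against 2), 0 genes passed under either rule, while 1768 were higher and 2022 lower at an unadjusted p below 0.05 and the smallest adjusted p was 0.0626.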
